A study of Mus musculus with 2 samples.

Results

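The nuclear genes for the subunits of oxidative phosphorylation were followed through an ETO2 knockdown in a mouse erythroid cell line. Members were the non-control probes whose gene name on the array begins with Nduf, Uqcr, Cox4 to Cox8 or Atp5, or is Sdha, Sdhb, Sdhc or Sdhd. The rule took 83 of the 27745 gene names on the array, through 116 of its 41174 probes. A probe was kept when it was well above background in the same dye on both arrays, which left 110 member probes for 80 gene names, of 24410 kept probes in all. The 6 probes that were not kept were the only probes for Cox4i2, Cox8b and Cox8c, and 1 further probe each for Ndufab1, Ndufs1 and Ndufs4.

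The respiratory chain sits in the inner mitochondrial membrane. Complex I takes electrons from NADH and complex II from succinate, both pass them to ubiquinone, complex III hands them on to cytochrome c, and complex IV gives them to oxygen. Complexes I, III and IV pump protons, and complex V, the ATP synthase, makes ATP as the protons flow back. Red cell precursors need mitochondria for haem synthesis and iron handling, and lose them as they mature into red cells.

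The cells were G1E-ER-GATA-1, a GATA-1-null line given an estradiol-dependent form of that factor, a master regulator of red cell genes. Both groups carried this background and were given β-estradiol for 24 h, and by the labels they differed in the siRNA, directed against ETO2 or a control. ETO2, encoded by Cbfa2t3, is a corepressor found in GATA-1 complexes. Each of 2 arrays paired control siRNA RNA in red (Cy5) with ETO2 siRNA RNA in green (Cy3), 1.2 µg per dye. The dyes were never swapped, so dye and treatment cannot be told apart for a single probe, and both arrays lay on 1 slide. The labels do not say whether the arrays came from separate cultures, so errors (SD, n = 2 throughout) and p-values measure the spread between these arrays, which may be technical. All ratios are log2 of ETO2 siRNA over control siRNA. A probe was called at a limma adjusted p under 0.05, with Benjamini-Hochberg adjustment over all 24410 kept probes. Across those probes the arrays correlated at r = 0.845, and 39.5% were called, 18.8% higher and 20.7% lower with ETO2 siRNA. With only 2 arrays a sign permutation test of 1 value cannot give p below 0.5.

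The probes for the target, named Cbfa2t3h on the array, stood at 74.6% and 85.6% of control, with log2 ratios of -0.42 ± 0.05 and -0.23 ± 0.005. Although the labels name embryonic stem cells as the cell type and erythroid as the tissue, all 10 erythroid marker names had a kept probe, and of 7 stem cell markers Pou5f1, Nanog, Sox2, Zfp42 and Klf4 had none, while Esrrb and Tdgf1 had one each. Of the 14 kept erythroid marker probes, 13 were called higher and 1 lower. Every unsaturated probe among them was called higher, and the lower one was a saturated Hbb-b1 probe. The summed signals of this list, in which the 5 globin probes (Hbb-b1 and Hba-a1) were saturated, ran from 404931 to 408855 scanner units with ETO2 siRNA and from 447059 to 455596 with control siRNA, before the dyes were balanced. Of mast cell and granulocyte markers 2 of 7 kept probes were higher and 2 lower, and of megakaryocyte markers 2 of 3 were higher. The higher mast cell probes, for Mcpt4 and Mcpt1, were dim, at 91 to 121 units over both dyes. Of the lower ones, Prtn3 read 70 to 124 units and Hdc 129 to 559. The part of these cell types in the results below was not tested, and in RNA from a whole culture fewer cells of a type and less RNA per cell cannot be told apart.

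Saturation splits the members. In 26 member probes, for 24 gene names, the control channel was flagged as saturated, near the scanner's ceiling of 65221 units, on both arrays for 23 of them and on array 2 alone for Ndufc2, Atp5j and 1 of the Ndufa1 probes. Cox6a1 was also saturated in the ETO2 siRNA channel, on array 1. A control signal cut off at the ceiling is too low, so the ratio of such a probe is too high by an unknown amount. The 26 saturated member probes had a median of 0.16 on the log2 scale (0.15 and 0.15 on the single arrays), and 12 of them passed the test above 0 and 2 below it. All 440 saturated probes on the array had a median of 0.35, of which 79.5% passed the test, 68% above 0 and 11.6% below. The 84 unsaturated member probes, for 63 gene names, had a median of -0.08 (-0.10 on array 1 and -0.08 on array 2). Of these, 14 were higher, 33 lower and 37 not called, so 56.0% were called. Among all 23970 unsaturated kept probes, whose median was -0.01, 38.7% were called, 17.9% higher and 20.9% lower. In shares, 16.7% of the unsaturated members were higher and 39.3% lower, with log2 ratios from -0.69 to 0.50. Below 0 on both arrays lay 49 of the 84 and above 0 on both lay 26. Directions in what follows rest on unsaturated probes.

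**Figure D1:**
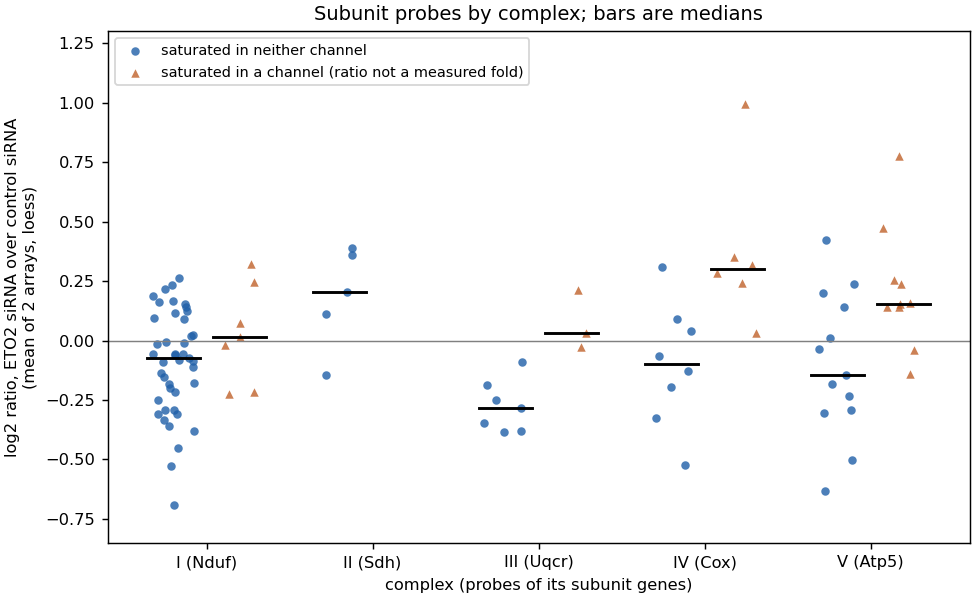
Mean log2 ratio over the 2 arrays (vertical axis, ETO2 siRNA over control siRNA, loess normalised) of each kept subunit probe, by complex (horizontal axis). Circles are probes saturated in neither channel, triangles are probes saturated in a channel and bars are medians. The unsaturated medians run from -0.28 in complex III to 0.20 in complex II, and in complexes I, III, IV and V the saturated probes have the higher median.

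The complexes differed in how their unsaturated probes were placed. Complex III lay lowest, with a median of -0.28 (-0.22 and -0.34 on the arrays) over 7 probes of 6 genes, of which 6 probes were lower and 0 higher. The cytochrome c1 gene Cyc1 is also a complex III gene but has a name the rule does not take, and its probe was higher. Complex V followed at -0.15 (-0.09 and -0.19), with 6 of 13 probes lower and 3 higher. Complex IV had a median of -0.10 (-0.11 and -0.08), with 3 of 8 probes lower and 1 higher. Complex I, the largest group, had a median of -0.07 on each array, with 15 of 43 probes lower and 4 higher. Complex II lay above 0 at 0.20 (0.12 and 0.29), with 3 of 5 probes higher and 0 lower. The median of complex II exceeded that of complex III by 0.34 on array 1 and 0.63 on array 2. Between complexes IV and V the order changed with the array, the difference being -0.02 on array 1 and 0.11 on array 2. Without probes that had any saturated pixel, a choice made after seeing the data, complex V stood at -0.09 and complex IV at -0.10, so their order was turned, and complex II at 0.28. These are descriptions of few probes, since probes of a complex are not replicates of the treatment.

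How the signals are balanced moves these values. Under plain median centring of each array the median of all kept probes was -0.29, only 4.51% of all calls were higher, against 47.6% under loess, and 75 of the 84 unsaturated members were lower and 0 higher, beside 63.3% lower and 2.99% higher of all kept probes. Relative to all kept probes, the members' median was then -0.34, compared with -0.08 under loess and -0.02 with the scanner software's processed signals. With the processed signals, 2 unsaturated members were higher and 2 lower, against 5.77% and 5.52% of all kept probes. The sign under processed signals matched loess for 66 of the 84 probes, including 31 of the 33 called lower and 14 of the 14 called higher. The probes called under both were Ndufa1 (-0.69 under loess, -0.50 under processed signals), Cox7a1 (-0.52 and -0.49) and Cox6a2 (0.31 and 0.48). Complex III had the lowest and complex II the highest median under loess, processed signals and median centring, but under median centring complex II was at -0.28, 0.002 above all kept probes.

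**Figure D2:**
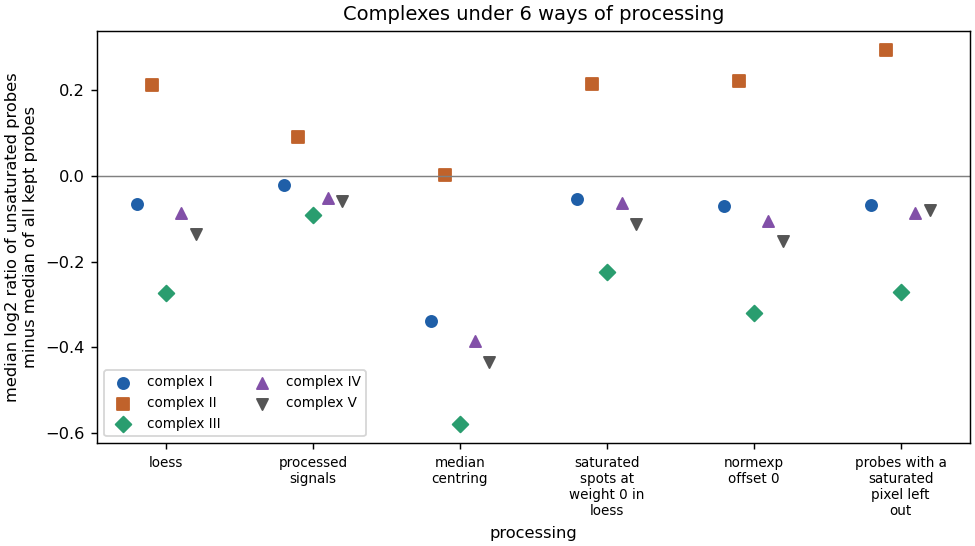
Median log2 ratio of unsaturated probes of each complex minus the median of all kept probes (vertical axis) under 6 ways of processing (horizontal axis). Complex III is lowest and complex II highest in each; the gap to the other probes is smallest for complex III with processed signals (-0.09) and largest with median centring (-0.58).

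**Figure D3:**
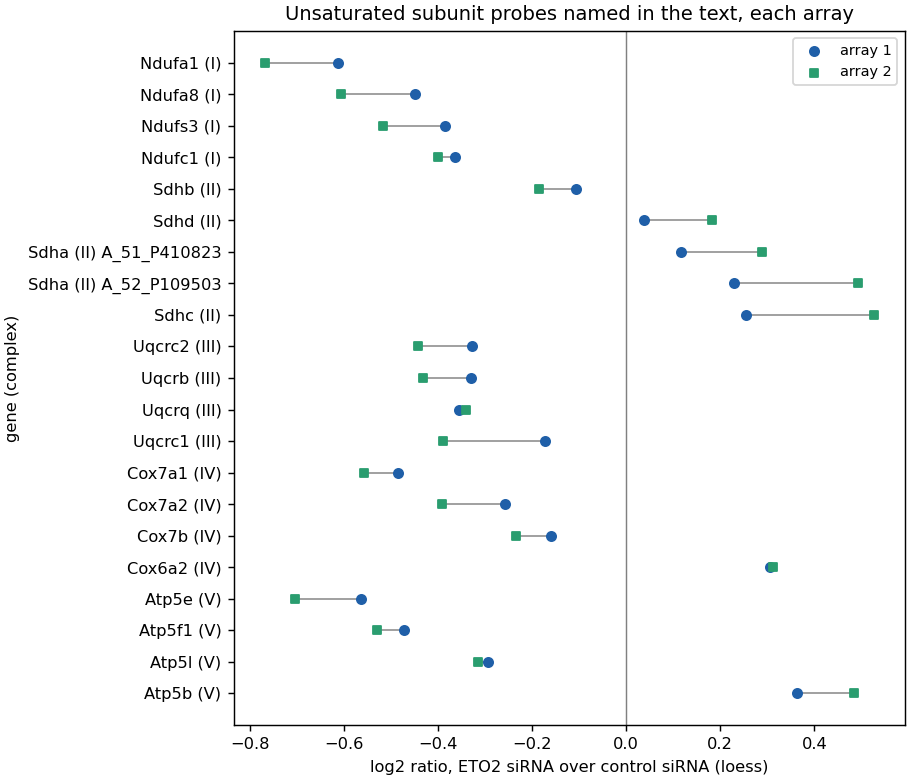
Log2 ratio of ETO2 siRNA over control siRNA (horizontal axis, loess normalised) on array 1 (circles) and array 2 (squares) for unsaturated probes of the largest called subunit genes of each complex and of all Sdh genes (vertical axis, complex in brackets). All 4 complex III probes shown are below 0 on both arrays, while Sdha, Sdhc and Sdhd are above 0 on both.

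In complex I the 35 subunit genes gave 12 with calls that were lower only, 2 higher only and 1 with calls in both directions. A further 15 were not called and 5 had only saturated probes. A gene counts by any called unsaturated probe, so a gene with several has more chances, and its other probes may not be called. The share of genes over the array was not computed. By probes, 34.9% in complex I were lower and 9.30% higher, beside 20.9% and 17.9% of all unsaturated kept probes. Ndufa1, a small accessory subunit of the membrane arm, had the lowest ratio of the unsaturated probes. Its unsaturated probe read 51179 and 55927 scanner units with control siRNA on arrays 1 and 2 and 17883 and 15226 with ETO2 siRNA, before the dyes were balanced. After balancing, the log2 ratios were -0.61 and -0.77, a fall of 1.61-fold (mean -0.69 ± 0.11, limma adjusted p = 1.15e-06). The other Ndufa1 probe, whose control signal reached the ceiling on array 2, was at -0.19 and -0.26. Ndufa8, an accessory subunit on the intermembrane side, had log2 ratios of -0.45 and -0.61 on one probe (mean -0.53 ± 0.11, limma adjusted p = 1.73e-05) and -0.20 and -0.39 on the other. Ndufs3, a core subunit of the matrix arm, read -0.38 and -0.52 (mean -0.45 ± 0.09, limma adjusted p = 6.54e-05). For Ndufc1, another accessory subunit, a probe read -0.36 and -0.40 (mean -0.38 ± 0.03, limma adjusted p = 0.000225). On both arrays the ratios of these 4 probes were below 0. With the processed signals they stood at -0.50 (Ndufa1), -0.18 (Ndufa8), -0.28 (Ndufs3) and -0.29 (Ndufc1), and only that of Ndufa1 was still called. Core subunits did not move one way. Ndufv2, an iron-sulphur subunit of the NADH-oxidising module, fell (-0.31 on each array, limma adjusted p = 0.00116), whereas Ndufs1, the largest core subunit, rose (0.27 and 0.25, limma adjusted p = 0.00401). Ndufs7, Ndufs8 and Ndufv1 were not called, with means of 0.09, -0.08 and -0.07. Ndufs6, an accessory subunit, was the other gene called higher only.

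Complex II, succinate dehydrogenase, is also an enzyme of the citric acid cycle and has no subunit made in the mitochondrion. Sdha, the flavoprotein that oxidises succinate, rose on both its probes. On the first the log2 ratio was 0.23 and 0.49 (mean 0.36 ± 0.19, limma adjusted p = 0.000922), and on the second 0.12 and 0.29 (mean 0.20 ± 0.12, limma adjusted p = 0.0248). Sdhc, a membrane anchor, rose by a similar amount, with 0.25 and 0.53 (mean 0.39 ± 0.19, limma adjusted p = 0.000518). Array 2 gave the higher value on all 3 of these probes. Sdhd, the other anchor, was not called at 0.04 and 0.18, and Sdhb, the iron-sulphur subunit, was not called at -0.11 and -0.18. Complex II probes were all unsaturated. Under median centring, which put all kept probes at a median of -0.29, the Sdha probes stood at -0.15 and -0.28 and Sdhc at -0.13, below 0 but above that median. With the processed signals the complex II median was 0.10 and 0 of its 5 probes were called. The Sdha probes then stood at 0.37 and 0.03 and Sdhc at 0.24.

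In complex III, 6 of 7 genes had an unsaturated probe, and each of the 6 had one called lower. Uqcrc2, a core protein, read -0.33 and -0.44 (mean -0.39 ± 0.08, limma adjusted p = 0.00025), although the processed signals put it at 0.005. Its partner Uqcrc1 read -0.17 and -0.39 on one probe (limma adjusted p = 0.00426) and -0.04 and -0.14 on another, which was not called. Uqcrb, a small subunit near the ubiquinone site, read -0.33 and -0.43 (mean -0.38 ± 0.07, limma adjusted p = 0.000266). The Rieske iron-sulphur protein, Uqcrfs1, read -0.22 and -0.28, and the small subunit Uqcr, now named Uqcr11, -0.15 and -0.23. For Uqcrq the called probe, at -0.36 and -0.34, was a dim one designed on a cDNA clone (277 and 360 units with control siRNA), and the probe designed on the reference transcript was saturated. Uqcrh, which helps cytochrome c to dock, had only saturated probes. The fall in complex III under loess was small, 1.22-fold at the median probe. With the processed signals the complex III median was -0.09 and 0 of its 7 unsaturated probes were called.

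Of the 16 complex IV genes, counted as in complex I, 3 were lower, 1 higher, 3 not called, 6 saturated only and 3 without a kept probe. By unsaturated probes, 37.5% were lower and 12.5% higher, beside 20.9% and 17.9% over the array. Cox7a1, the isoform typical of heart and skeletal muscle, read 29133 and 34995 units with control siRNA and 11306 and 11242 with ETO2 siRNA. Its balanced log2 ratios were -0.48 and -0.56 (mean -0.52 ± 0.05, limma adjusted p = 1.34e-05). Cox7a2, the widely expressed isoform, gave -0.26 and -0.39 on one probe (limma adjusted p = 0.00107) and 0.10 and -0.02 on the other, which was not called. Cox7b fell less, at -0.16 and -0.23 (limma adjusted p = 0.0233). Cox6a2, another isoform of muscle, was higher at 0.31 on both arrays (limma adjusted p = 0.00118), from a dim probe of 219 and 212 units with control siRNA. Among heart and muscle markers Myh6 and Tnnt2 had no kept probe, while Actc1, Ckm and Myh7 did, and of 4 kept probes 2 were higher and 1 lower. Before the dyes were balanced, the markers' summed signal ran from 1516 to 1630 units with ETO2 siRNA and 2659 to 2741 with control siRNA. That sum takes in probes that were not kept, and most of it was Actc1, the lower marker (balanced log2 ratio -0.27). Both Myh7 probes were higher, but dim, at 130 to 160 units over both dyes. The part of these markers in the Cox7a1 and Cox6a2 values was not tested. Cox6a1, the widely expressed counterpart of Cox6a2, was saturated and has no measured fold. The same holds for Cox4i1, Cox5a, Cox5b, Cox8a and Cox6c. The pair Cox6b1 and Cox6b2, the latter typical of testis, was not called, with -0.10 and -0.03 for Cox6b1 and 0.21 and -0.02 for Cox6b2. Ndufa4, named for complex I but found in complex IV, was lower at -0.14 and -0.21 (limma adjusted p = 0.0407). With it, the complex IV median moved from -0.10 to -0.13.

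In complex V, counted in the same way, 5 of 15 genes were called lower, 2 higher and 1 in both directions, with 2 not called and 5 saturated only. By unsaturated probes, 46.2% were lower and 23.1% higher, beside 20.9% and 17.9% over the array. Atp5e, the epsilon subunit of the central stalk, had log2 ratios of -0.56 and -0.70 (mean -0.63 ± 0.10, limma adjusted p = 2.53e-06). Atp5f1, now Atp5pb, a subunit of the peripheral stalk, gave -0.47 and -0.53 on one probe (limma adjusted p = 1.92e-05), while its dim cDNA probe gave -0.03 and -0.04 and its remaining probe was saturated. Atp5l, the g subunit of the membrane sector, read -0.29 and -0.32 (limma adjusted p = 0.00131). Atp5d, the delta subunit of the central stalk, read -0.28 and -0.19. In the catalytic head, Atp5b and Atp5a1 each had 1 unsaturated probe called higher under loess. With the processed signals 0 of the 13 unsaturated complex V probes were called, in either direction. Atp5b, the beta subunit, read 0.36 and 0.48 on one probe (mean 0.42 ± 0.09, limma adjusted p = 0.000112, -0.10 under median centring) and 0.13 and 0.16 on another that was not called. Atp5a1, the alpha subunit, read 0.27 and 0.21 on its unsaturated probe (limma adjusted p = 0.00768, -0.38 under median centring). The c subunit of the rotor is made from Atp5g1, Atp5g2 and Atp5g3, which encode the same mature protein behind different import sequences. Atp5g1 was lower at -0.27 and -0.31 (limma adjusted p = 0.00195), Atp5g2 had 1 probe in each direction and Atp5g3 was saturated.

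The brightest saturated members show how the ceiling acts. Cox6a1 had 65221 and 65210 units with control siRNA and 65103 and 60549 with ETO2 siRNA, Atp5a1 had 54917 and 53165 with ETO2 siRNA on its saturated probe, and for Atp5b these were 48400 and 40147. Cox4i1 had 43480 and 37788. Their computed log2 ratios, 0.93 and 1.06 on the arrays for Cox6a1 and means of 0.77, 0.47 and 0.35 for Atp5a1, Atp5b and Cox4i1, are not measured folds. Where the control was cut off on both arrays and the ratio was nevertheless below 0, a bound can be given within 1 way of balancing. Ndufs5, an accessory subunit of complex I, had log2 ratios of -0.13 and -0.30 on the arrays. Under this loess balancing its means put it at least 1.16-fold lower (limma adjusted p = 0.0177), a value that other balancing moves. With saturated spots at weight 0 in loess its log2 ratio was -0.16. With the processed signals it stood at -0.08 and was not called. Atp5j2, a membrane subunit of complex V, was not called on its saturated probe, at -0.05 and -0.24.

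Members were bright, with a median brightness of 14.05 (mean log2 of both channels) against 8.77 for all unsaturated kept probes. Among unsaturated probes between 14 and 15, 52.9% of 34 members and 39.3% of all 745 probes were called lower, with medians of -0.18 and -0.08. From 15 upward the medians were -0.18 for 9 members and -0.11 for all 174 probes. Between 12 and 13 the order was turned, at 0.11 for 11 members and 0.01 for all 1818 probes. Bright unsaturated probes of all kinds were thus more often called lower than dimmer ones (39.3% between 14 and 15 and 25.8% between 13 and 14), and the bright members' medians lay below theirs. Over the 84 members brightness and log2 ratio correlated at r = -0.31, as a description, since the probes share the arrays and dyes. The share of G and C in the probe gave r = 0.06. The part of brightness in the result was not tested.

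**Figure D4:**
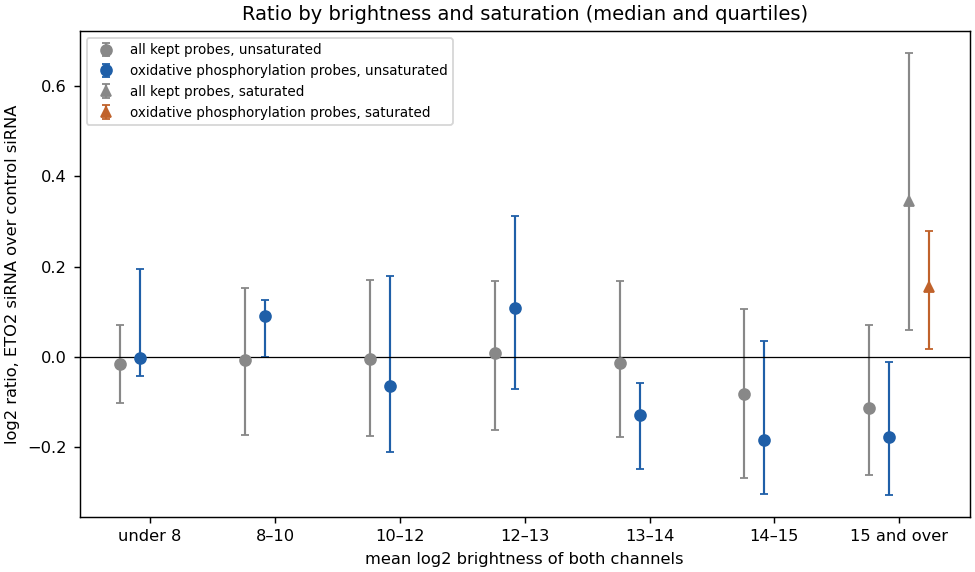
Median and quartiles of the log2 ratio (vertical axis, ETO2 siRNA over control siRNA) by mean log2 brightness of both channels (horizontal axis) for all kept probes in grey and oxidative phosphorylation probes in colour. Circles are unsaturated and triangles saturated probes. Saturated probes, all at 15 and over, have medians of 0.35 (all) and 0.16 (members), while the unsaturated ones at that brightness lie at -0.11 and -0.18.

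Probes of the same gene did not always give the same answer. Among members there were 25 pairs of kept, unsaturated probes in 17 genes. The median gap between the log2 ratios of a pair was 0.27, against 0.17 over 10878 pairs in all genes, and 3 pairs (12%) were called in opposite directions, against 4.52%. Those 3 pairs belonged to Ndufa12, Atp5g2 and Cox4nb, the last not a subunit. The comparison with all genes was not matched for brightness or for the share of probes called, both higher among members. Probes that share sequence can differ too. Of the Ndufa12 probes, which report an accessory subunit of complex I, the first below was lower (-0.16 and -0.24 on the arrays) and the second higher (0.27 and 0.16), though they have 40 bases in common, shown in capitals. The remaining Ndufa12 probe was not called, at 0.19 and 0.06. With the processed signals the lower probe stood at -0.16 and the higher at 0.02, and neither was called.
Ndufa12 lower probe: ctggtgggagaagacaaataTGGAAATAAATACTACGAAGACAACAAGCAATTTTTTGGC
Ndufa12 higher probe: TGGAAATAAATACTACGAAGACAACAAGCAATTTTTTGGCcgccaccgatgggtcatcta

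Ndufs6 had 3 overlapping probes, printed here 5′ to 3′ because a shift of a few bases went with a different call. The 33 bases that all share are in capitals. The first and last were called higher, at 0.19 ± 0.02 (limma adjusted p = 0.0279) and 0.23 ± 0.01 (limma adjusted p = 0.00878), and the second was not, at -0.05 ± 0.01. The second and last have 54 of their 60 bases in common and still differed by 0.29 under loess. With the processed signals the 3 probes stood at 0.06, 0.006 and 0.06, in the order printed, and none was called.
Ndufs6 first probe: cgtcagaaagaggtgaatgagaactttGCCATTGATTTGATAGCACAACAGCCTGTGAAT
Ndufs6 second probe: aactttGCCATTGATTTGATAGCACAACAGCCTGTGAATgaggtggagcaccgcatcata
Ndufs6 last probe: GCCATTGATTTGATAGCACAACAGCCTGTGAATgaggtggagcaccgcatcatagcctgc

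Both members called lower under loess and with the processed signals, Ndufa1 and Cox7a1, rest on 1 unsaturated probe each, and these are shown as the sequences behind those values. No member probe shared 30 or more bases with a probe of another gene name.
Ndufa1 probe: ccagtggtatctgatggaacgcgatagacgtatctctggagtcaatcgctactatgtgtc
Cox7a1 probe: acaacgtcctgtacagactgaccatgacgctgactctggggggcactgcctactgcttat

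**Figure D5:**
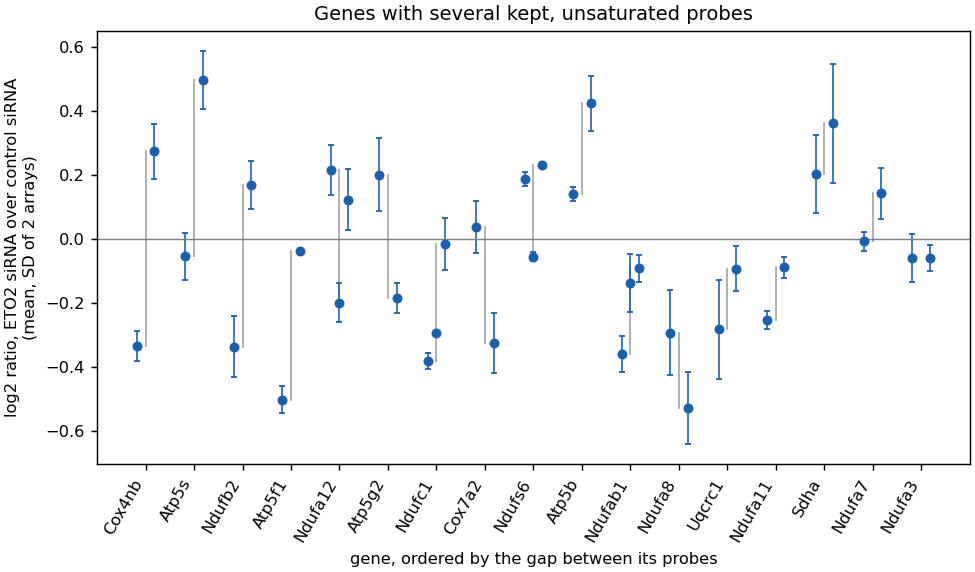
Log2 ratio of ETO2 siRNA over control siRNA (vertical axis; points are means and bars SD over 2 arrays) of each kept, unsaturated probe in the 17 genes with several (horizontal axis), ordered by the gap between a gene's probes. Cox4nb, at -0.33 and 0.27, shows the widest gap and Ndufa3, at -0.06 on both probes, the narrowest.

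The name rule also took in 5 genes that are no subunits, with 7 probes, of which 3 were higher and 2 lower. Ndufaf1, an assembly factor of complex I, was higher (0.29 and 0.23, limma adjusted p = 0.0041). Cox7a2l, which joins complexes into supercomplexes, was lower (-0.20 and -0.21, limma adjusted p = 0.0171) under loess and at 0.11 with the processed signals. Atp5s, now Dmac2l, had a probe at 0.43 and 0.56 (limma adjusted p = 2.64e-05) and another at -0.002 and -0.11. Cox4nb, now Emc8, a subunit of a membrane protein insertion complex of the endoplasmic reticulum, had 1 probe in each direction. The last, Ndufa12l, now Ndufaf2, was not called.

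Other genes of the pathway were read from lists of names, over unsaturated probes, of which 17.9% of all kept ones were higher and 20.9% lower. Of 56 assembly factor probes 18 (32.1%) were higher and 6 (10.7%) lower, with a median of 0.08. They include the probes for Ndufaf1 (higher) and Ndufa12l (not called), already counted among the members. Cox11, which delivers copper to complex IV, stood at 0.61 and 0.49 (limma adjusted p = 9.25e-06), and Lrpprc, which stabilises mitochondrial mRNA, at 0.39 and 0.58 (limma adjusted p = 4.89e-05). Coenzyme Q genes had 5 (27.8%) higher and 2 (11.1%) lower of 18 probes, with Coq7 and Coq6, enzymes of its synthesis, at means of 0.39 and 0.38. For the citric acid cycle and pyruvate dehydrogenase, 4 (13.3%) of 30 probes were higher and 7 (23.3%) lower, with a median of 0.06, and the largest were Idh3b (0.44) and Pdhb (0.37), both higher. Transporters of ADP, phosphate and the outer membrane had 2 (20%) of 10 higher and 0 lower, namely probes for Vdac1 (0.38) and Slc25a3 (0.30). Among regulators of mitochondrial genes 6 (16.2%) of 37 probes were higher and 4 (10.8%) lower, shares near or below those of all probes. The coactivator Pprc1 was higher at 0.30 and 0.62 (limma adjusted p = 0.000176). A probe for Hcfc1, a cofactor of transcription, was called at a mean of 0.31 although the arrays gave 0.69 and -0.08. Of 11 probes for electron carriers and subunits with other names, 6 (54.5%) were lower and 1 (9.09%) higher. The higher one, named after its values were seen, was for Cyc1, the cytochrome c1 of complex III, at 0.18 and 0.44 (limma adjusted p = 0.00277). Usmg5, now Atp5md, a small subunit of the ATP synthase, was at -0.65 and -0.73 (limma adjusted p = 8.32e-07), and Etfdh, which passes electrons from fat oxidation to ubiquinone, at -0.59 and -0.66 (limma adjusted p = 2.24e-06). Of the mitochondrial DNA genes 3 had a probe. ND4L of complex I was lower at -0.41 and -0.06 (limma adjusted p = 0.0266), and the probes of CYTB and COX2 were saturated.

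Promoters from RefSeq (mouse, GRCm38.p6) were held for 63 of 75 subunit symbols with a kept probe. They were searched on both strands, from 250 bases before to 50 after the start, for motifs of NRF1, ETS factors and YY1, which are known to act on such genes, and of GATA factors. The letters GCGCANGCG, for NRF1, were in 20 (31.7%) of the 63 genes, against 7.03% of 27025 genes with promoters of the same length. CCGGAAG, for ETS factors, was in 16 (25.4%), against 9.93%, and AAGATGGCG, for YY1, in 7 (11.1%), against 1.64%. The letters AGATAA, for GATA factors, were in 6 (9.52%), against 12.7%. Matches of the NRF1 letters on opposite strands can share bases, and each gene counts once per motif. Some genes, such as Ndufa5, have more than 1 start, and the number of starts was not matched. The median log2 ratio was 0.01 for the 13 genes that had the NRF1 letters and an unsaturated probe, and -0.14 for the 36 without them. For ETS these were -0.15 (11 genes) and -0.10 (38 genes), for YY1 0.01 (6 genes) and -0.15 (43 genes), and for GATA -0.21 (4 genes) and -0.14 (45 genes). A match describes these letters, not a bound site. Genes with the same letters went different ways (means over a gene's unsaturated probes in brackets). With the NRF1 letters, Sdha was higher (0.28), Ndufa8 lower (-0.41) and Ndufb4 not called (0.02). With the GATA letters, Cox7a1 (-0.52) and Atp5g1 (-0.29) were lower, Cox7c was not called (-0.13) and Ndufa12 had calls in both directions (0.05). The 250 bases before the start are printed for Sdha, which rose and holds the NRF1 letters 3 times, and for Cox7a1, which fell and holds the GATA letters once on each strand, with matches in capitals. Sdha is at chr13:74350241-74350490 on the minus strand and Cox7a1 at chr7:30183921-30184170 on the plus strand.
Sdha promoter: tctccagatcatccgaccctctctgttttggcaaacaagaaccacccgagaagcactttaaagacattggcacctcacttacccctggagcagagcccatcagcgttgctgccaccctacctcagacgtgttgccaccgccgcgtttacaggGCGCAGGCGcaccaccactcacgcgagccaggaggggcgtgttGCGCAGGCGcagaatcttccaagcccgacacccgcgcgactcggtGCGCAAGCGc
Cox7a1 promoter: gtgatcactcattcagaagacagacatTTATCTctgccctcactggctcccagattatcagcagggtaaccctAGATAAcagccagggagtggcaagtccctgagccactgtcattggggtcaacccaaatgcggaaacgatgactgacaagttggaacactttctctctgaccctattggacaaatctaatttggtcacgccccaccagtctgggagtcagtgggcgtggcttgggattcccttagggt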

How the data were processed

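Whole mouse genome arrays were scanned in 2 colours. The deposited intensity values, per the file headers, came from Agilent Feature Extraction 9.1.3.1, with a mean and a background signal and flags for background and saturation per spot. The deposited log10 ratios of red over green were set beside the processed intensity values of the same arrays and used as an alternative. Members and gene lists were chosen with earlier results of these data known. Genes named here are, in each complex, the 4 with the largest called unsaturated probe, all Sdh genes, the isoform sets, genes whose probes were called in opposite directions, the 4 brightest saturated members and the 2 largest of each related list; other members were named after their values were seen.

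Mean signals were corrected with normexp (offset 50) and balanced by loess within each array in limma 3.58.1 (R 4.3.3), with control spots at weight 0. Spots of a probe were averaged, the sign was turned to green over red, and lmFit and eBayes tested each probe against 0, two-sided. With 1 residual degree of freedom, the test leans on the spread shared by all probes (prior SD 0.0927). The code was tested on simulated data. A probe is saturated where either channel is flagged on either array. Of the member probes 101 matched RefSeq by accession, 12 by symbol and 3 by synonym. Alternatives were the offset, median centring, the processed signals, the weight of saturated spots, filters, 1 value per gene and leaving out each array. The number of arrays limits the precision.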

Additional observations from a re-analysis of the deposited data

How the results depend on the processing

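Values are log2 of ETO2 siRNA over control siRNA. Over all kept member probes, 26 were higher and 35 lower, with a median of -0.033. The medians of all, unsaturated and saturated members and of complexes I to V kept their sign under the alternatives tried, except for saturated members and complex II under median centring, and for all members with the processed signals and the deposited log ratios. Those last settings gave the same values: 12 were higher and 2 lower, and the medians of all, unsaturated and saturated members were 0.0056, -0.020 and 0.35. There the medians of complexes I, III, IV and V were -0.018, -0.088, -0.048 and -0.054, Uqcrc2 was at 0.0051, Sdhb at 0.014, Cox6b2 at -0.040, Cox7a2 A_51_P319031 at -0.026, Cox7a2l at 0.11 and Ndufa12 A_52_P724940 at -0.023. Complex II had a median of 0.095 and 0 of 5 probes called, with Sdha A_51_P410823 at 0.035. Of the 42 probes named by the rule, 35 were called under loess, of which 26 were no longer called, and 6 of the 42 changed sign. Under median centring 1 was higher and 99 lower, and those 3 medians were -0.60, -0.63 and -0.50. Complexes I to V stood at -0.62, -0.28, -0.87, -0.67 and -0.72. Of the 42 probes, the 16 that changed sign there were Sdhc (-0.13), Sdhd (-0.54), Sdha (-0.15 and -0.28), Cox4i1 (-0.31), Cox5a (-0.41), Cox5b (-0.37), Cox8a (-0.34), Cox6b2 (-0.26), Cox7a2 (-0.59), Atp5g3 (-0.51), Atp5g2 (-0.43), Atp5b (-0.19 and -0.10) and Ndufa12 (-0.36 and -0.48). Other member probes described above that did so included those of Atp5a1 (-0.38), Atp5b A_51_P207636 (-0.48), Ndufs1 (-0.35), Ndufs6 (-0.36 and -0.33), Ndufs7 (-0.51) and Ndufaf1 (-0.25). In the related lists, the named probes of Cyc1 (-0.29), Vdac1 (-0.21), Pdhb (-0.20), Idh3b (-0.11), Coq7 (-0.05), Coq6 (-0.04), Pprc1 (-0.02), Hcfc1 (-0.01) and Slc25a3 (-0.003) also turned. Those of Lrpprc (0.24) and Cox11 (0.05) stayed above 0. With an offset of 0, 14 were higher and the medians of all members, saturated members and complex I were -0.051, 0.10 and -0.073. Saturated spots at weight 0 in loess gave -0.0028, -0.067 and 0.21 for all, unsaturated and saturated members, with complexes I and IV at -0.060 and -0.070. Without saturated probes 14 were higher, with a median of -0.085. Leaving out probes with any saturated pixel (chosen after seeing the data) also gave 14 and -0.085, with complexes I, II, IV and V at -0.078, 0.28, -0.097 and -0.092, so that IV and V changed order. With the brightest probe per gene the 3 medians were -0.046, -0.13 and 0.18, with complexes I, IV and V at -0.078, -0.064 and -0.26. Averaging a gene's probes gave -0.049, -0.12 and 0.15, with -0.078, -0.13 and -0.26. With no filter on dim probes, unsaturated members were at -0.062, complex I at -0.059 and complex IV at -0.050. The causes of these shifts were not tested. Leaving out 1 array gave -0.036 to -0.032 for all members, -0.095 to -0.083 for unsaturated members, 0.150 to 0.155 for saturated members and -0.0730 to -0.0725 for complex I. The signs of Cox6b2 (-0.024 to 0.21) and Cox7a2 A_51_P319031 (-0.018 to 0.10) turned. Counts have no value with 1 array, which leaves no residual degree of freedom. Both conditions share each array, so each ratio is already a paired difference and the test against 0 is a paired analysis. There is 1 group of ratios, so no further pairing was made.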
